A study of Mus musculus with 4 samples.

Results

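The genes described here are 34 genes of glycolysis and of the cellular response to low oxygen, named individually rather than picked by a threshold, out of 13685 genes listed in any of the deposited tables. They comprise 18 glycolytic enzymes (with the regulatory enzymes Pfkfb3, Pfkfb4 and Pdk1 counted among them) and 16 genes of the hypoxia-inducible factor (HIF) pathway and its targets. All 34 were listed in both tables that hold CAF.CM, and 33 were listed in the Wnt2 table, where Adm was missing. RNA-seq was carried out on mouse dendritic cells grown from the bone marrow of C57BL/6 mice aged 4 weeks, by culture for 7 days in IL-4 and GM-CSF at 10 ng/ml each. After this culture, which all groups shared, the cells received Wnt2 (a secreted signalling ligand), CAF.CM that had been pre-incubated with an antibody to Wnt2 (written CAF.CM + Wnt2 antibody), CAF.CM alone (medium conditioned by CAFs, the usual abbreviation of cancer-associated fibroblasts), or control medium. Total RNA was depleted of ribosomal RNA before stranded library preparation. There was 1 column of values for each of the 4 groups; the series text mentions triplicates, and the sources used here do not say whether a column pools several cultures. A column is called a library, no difference has a replicate check, and no p-value was computed.

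Glycolysis splits glucose into pyruvate, which lactate dehydrogenase can reduce to lactate, and dendritic cells are known to raise its flux when they are activated. HIF-1 is a transcription factor whose alpha subunit (Hif1a) is marked for destruction by the oxygen-dependent prolyl hydroxylases Egln1, Egln2 and Egln3. When that hydroxylation slows, HIF-1 accumulates and binds hypoxia response elements near genes of glycolysis, blood vessel growth, mitophagy and collagen modification, among them Egln3 itself. HIF-1 is also known to be active in myeloid cells at normal oxygen, during inflammatory activation.

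Levels are in CPM (reads per gene relative to library size) on the deposited scale. Listed genes held 154399767 reads for Wnt2, 22791494 for CAF.CM + Wnt2 antibody, 25225220 for CAF.CM and 143071376 for control medium, so the CAF.CM libraries have wider counting errors. Each log2 ratio is given with a 95% exact binomial interval on the reads of 2 libraries, which covers counting error only. A gene is called higher or lower when it differed at least 2-fold (a log2 ratio of 1 or more, or of -1 or less). Summed levels of cell type markers differed between the groups, which does not by itself show a different cell type. The 17 dendritic cell markers, of which 16 were listed with Wnt2 and in control medium and 14 in both CAF.CM libraries, summed to 897 CPM with Wnt2, 2001 CPM with CAF.CM + Wnt2 antibody, 2150.3 CPM with CAF.CM and 3788 CPM in control medium. In control medium this sum came mostly from Cd74, Itgax, H2-Aa, H2-Ab1 and H2-Eb1. Single markers did not all follow it, with ratios against control medium above 0 for 4 of 16 with Wnt2 and 5 of 14 with CAF.CM. Of all listed genes, 47.0% and 46.7% had one. Cd209a was missing from every table, and Flt3 and Xcr1 from the table of the antibody comparison and that of CAF.CM. The 14 macrophage and monocyte markers, all listed, summed to 21225 CPM with Wnt2, 6705 CPM with CAF.CM + Wnt2 antibody, 9671 CPM with CAF.CM and 29597 CPM in control medium, mostly through Lyz2. Neutrophil markers (3 or 4 of 12 listed, with Mpo, Elane and Ly6g not listed) summed to 1538 CPM with Wnt2, 108 CPM with CAF.CM + Wnt2 antibody, 157 CPM with CAF.CM and 598 CPM in control medium, mostly through Mmp8. Fibroblast markers (5 to 8 of 12 listed, with Col1a1 and Pdgfra not listed) summed to 19.1 CPM with Wnt2, 66.8 CPM with CAF.CM + Wnt2 antibody, 41.7 CPM with CAF.CM and 18.0 CPM in control medium. In both CAF.CM libraries this sum came mostly from Col5a1 (49.1 CPM with the antibody, 23.6 CPM with CAF.CM) and Dcn (13.9 and 10.7 CPM). Against control medium, 5 of 8 listed fibroblast markers had ratios above 0 with Wnt2 and 4 of 6 with CAF.CM. For the antibody against CAF.CM it was 2 of 5, where 45.2% of all listed genes had one. The nuclear RNA Malat1 stood at 17692 CPM with Wnt2, 37882 CPM with CAF.CM + Wnt2 antibody, 27631 CPM with CAF.CM and 13899 CPM in control medium. The part of cell type or of library make-up in the differences below was not tested. In bulk RNA, more cells of a type and more RNA per cell cannot be told apart.

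Control medium had the lowest level for 26 of the 33 genes measured in all 4 libraries. By set, this held for 13 of 18 enzymes and 13 of 15 HIF genes. CAF.CM + Wnt2 antibody had the highest level for 16 of the 33, Wnt2 for 10, CAF.CM for 4 and control medium for 3 (Hk3, Pfkfb4 and Bnip3l). How often each library was lowest or highest over all listed genes was not counted, so these counts do not set the 33 genes apart. Summed over the 18 enzymes, the level was 11837 CPM with Wnt2, 13549 CPM with CAF.CM + Wnt2 antibody, 13707 CPM with CAF.CM and 8654 CPM in control medium. The HIF genes summed to 6403 CPM with Wnt2 (15 of the 16 genes), 8348 CPM with CAF.CM + Wnt2 antibody, 7355 CPM with CAF.CM and 3404 CPM in control medium.

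**Figure D1:**
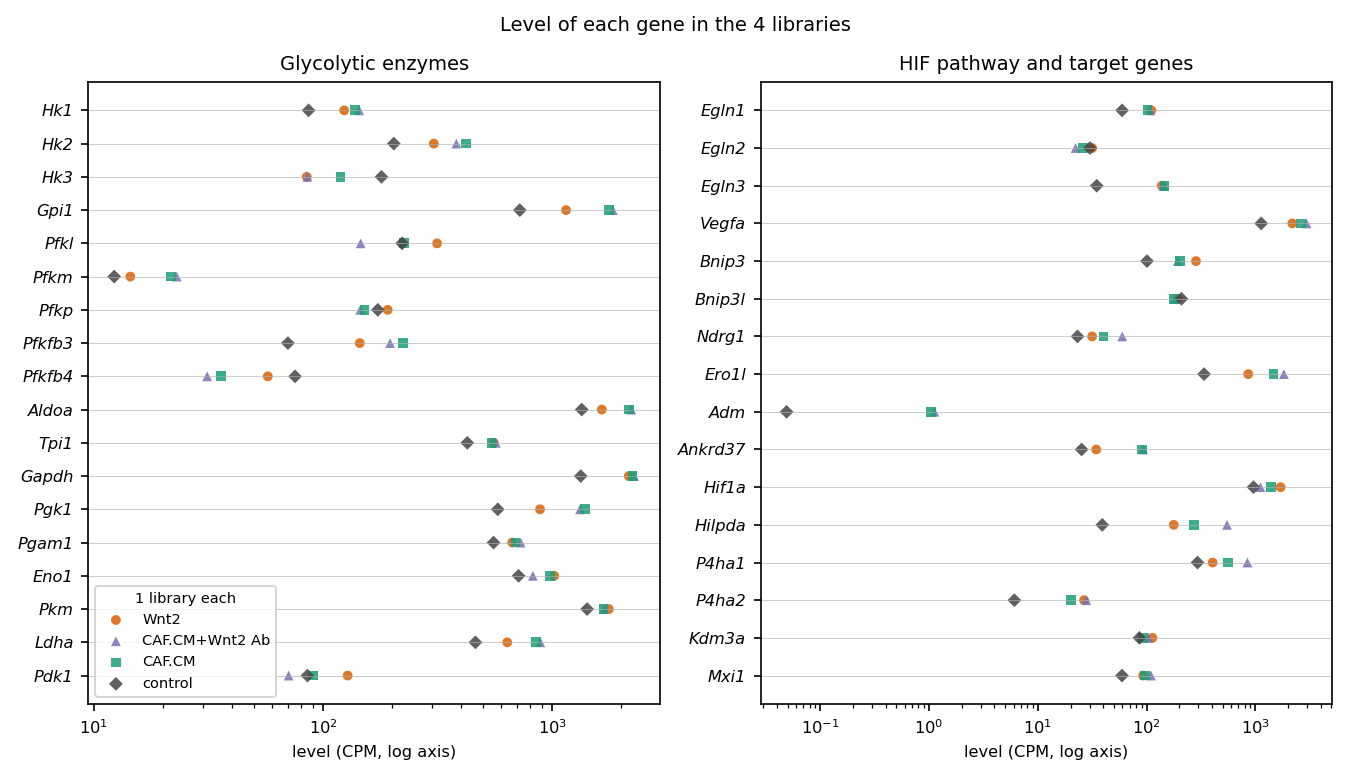
Level of each gene in CPM (log axis) in the 4 libraries, with 18 glycolytic enzymes on the left and 16 HIF pathway and target genes on the right; each symbol is 1 library. The control medium symbol lies furthest left for 26 of the 33 genes measured in all 4 libraries, a count not made for all listed genes, and Adm has no Wnt2 value.

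With Wnt2, most of these genes stood above control medium, and the HIF genes stood further above it than the enzymes. Of the 15 HIF genes listed, 5 were at least 2-fold higher (Hilpda, P4ha2, Egln3, Bnip3 and Ero1l) and 0 were lower, where 2.87% of all 13120 listed genes were higher and 2.93% lower. Among the 18 enzymes 1 was higher (Pfkfb3) and 1 was lower (Hk3). The counting interval lay wholly beyond 2-fold for all 6 higher genes and for Hk3, as it did for 2.20% (higher) and 2.10% (lower) of all genes. The median log2 ratio was 0.83 for the HIF genes and 0.48 for the enzymes, beside -0.02 for all listed genes. Ratios above 0 were found for 14 of 15 HIF genes and 16 of 18 enzymes, where 47.0% of all genes had one. In the authors' deposited table, 9 HIF genes and 6 enzymes were higher and 0 HIF genes and 1 enzyme lower at an adjusted p below 0.05, where 7.36% of all listed genes were higher and 8.0% lower. The sources used here do not say how these p-values were reached without replicates.

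With CAF.CM, the counts were larger for both sets. Of 16 HIF genes, 8 were at least 2-fold higher than in control medium (Adm, Hilpda, Ero1l, Egln3, Ankrd37, P4ha2, Vegfa and Bnip3) and 0 were lower. Adm had 1.04 CPM with CAF.CM and 0.049 CPM in control medium, and may be listed only through the CAF.CM library. Its call therefore adds no weight to the counts of higher genes given here. Of 18 enzymes, 4 were higher (Pfkfb3, Gpi1, Pgk1 and Hk2) and 1 was lower (Pfkfb4). The background was larger too, with 6.68% of 13329 listed genes higher and 8.69% lower. The interval lay wholly beyond 2-fold for 11 of the 12 higher genes, all but Bnip3, and not for Pfkfb4, where 4.80% of all genes were higher and 5.69% lower by that rule. The median was 0.97 for the HIF genes and 0.57 for the enzymes, beside -0.04 for all listed genes, and 14 of 16 HIF genes and 15 of 18 enzymes had ratios above 0, against 46.7% of all genes. At an adjusted p below 0.05 in the authors' deposited table, 13 HIF genes and 9 enzymes were higher and 0 HIF genes and 2 enzymes lower, where 13.9% of all genes were higher and 18.8% lower. Processed pseudogenes, whose sequence can take reads of abundant enzymes, had a median of 0.73 in this comparison, 0.08 with Wnt2 and 0.05 in the antibody comparison. The Wnt2 and CAF.CM comparisons share the control library, so their ratios are not independent.

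When CAF.CM had been pre-incubated with the Wnt2 antibody, the 34 genes were mostly near their CAF.CM levels. Of 16 HIF genes 1 was at least 2-fold higher with the antibody than with CAF.CM alone (Hilpda) and 0 were lower, and of 18 enzymes 0 were higher and 0 lower, where 1.02% of 13072 listed genes were higher and 3.65% lower. By an interval wholly beyond 2-fold 0 of the 34 genes were called, Hilpda included, and 0.176% of all genes were higher and 1.25% lower. The median log2 ratio was 0.13 for the HIF genes and -0.03 for the enzymes, beside -0.04 for all listed genes. Ratios above 0 were found for 12 of 16 HIF genes and 9 of 18 enzymes, where 45.2% of all genes had one. None of the 12 genes that were higher with CAF.CM was at least 2-fold lower with the antibody. With 3.65% of all listed genes lower, this count does not set the 12 genes apart. Their antibody ratios ran from -0.19 (Pfkfb3) to 1.01 (Hilpda), with a median of 0.04, and these ratios share the CAF.CM library with the ones that chose the 12 genes. At an adjusted p below 0.05 in the authors' deposited table, 1 HIF gene was higher and 1 enzyme lower, where 1.42% of all genes were higher and 5.55% lower.

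**Figure D2:**
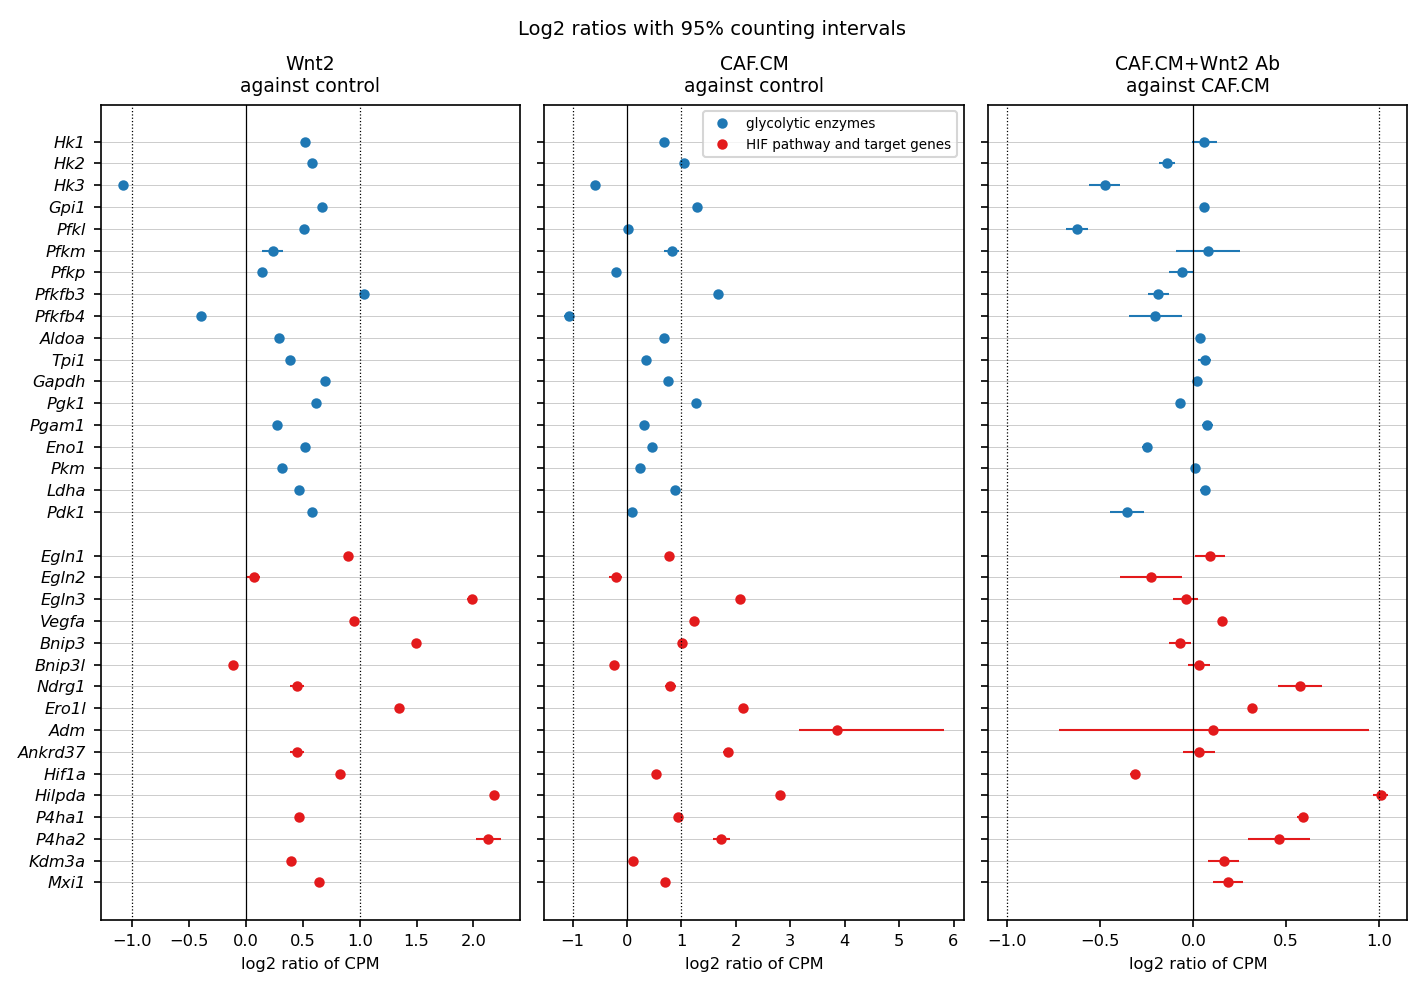
Log2 ratio of CPM for each gene in the 3 comparisons (note the different x axes), with bars for the 95% counting interval and dotted lines at 2-fold; blue marks enzymes and red HIF pathway and target genes. In the antibody panel 33 of the 34 genes lie between the dotted lines, and Hilpda lies on the upper one at 1.01.

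The enzymes are taken in the order of the pathway, starting with the hexokinases, which trap glucose in the cell as glucose 6-phosphate. Hk2, the inducible hexokinase bound to mitochondria, had 304 CPM with Wnt2, 381 CPM with CAF.CM + Wnt2 antibody, 421 CPM with CAF.CM and 203 CPM in control medium. Its log2 ratio was 0.58 (interval 0.56 to 0.60) with Wnt2, 1.05 (1.02 to 1.08) with CAF.CM and -0.14 (-0.18 to -0.10) for the antibody against CAF.CM. Control medium was the lowest library for Hk2 and both CAF.CM libraries the highest. Hk3, a hexokinase of myeloid cells, was highest in control medium, with 84.8 CPM with Wnt2, 85.5 CPM with CAF.CM + Wnt2 antibody, 119 CPM with CAF.CM and 180 CPM in control medium. It was lower with Wnt2 (-1.08, interval -1.11 to -1.05), and stood at -0.59 with CAF.CM and -0.48 for the antibody against CAF.CM. Hk1, the broadly expressed form, had 124 CPM with Wnt2, 144 CPM with CAF.CM + Wnt2 antibody, 138 CPM with CAF.CM and 86.4 CPM in control medium, with ratios against control medium of 0.52 with Wnt2 and 0.67 with CAF.CM.

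Hk2 and Hk3 thus stood in a different proportion in control medium than in the other libraries. There were 3.58 reads of Hk2 for each read of Hk3 with Wnt2, 4.46 with CAF.CM + Wnt2 antibody, 3.53 with CAF.CM and 1.13 in control medium, a ratio within 1 library that no scaling changes. Per kilobase of merged exons, Hk2 made up 57.6% of the hexokinase level with Wnt2, 61.5% with CAF.CM + Wnt2 antibody, 59.2% with CAF.CM and 36.6% in control medium. Hk3 made up 26.0% with Wnt2, 22.3% with CAF.CM + Wnt2 antibody, 27.2% with CAF.CM and 52.5% in control medium. The total of the 3 genes differed less, at 88.5 CPM per kb with Wnt2, 104 CPM per kb with CAF.CM + Wnt2 antibody, 119 CPM per kb with CAF.CM and 93.0 CPM per kb in control medium. The shares depend on the length used: the merged exons of Hk1 hold 8532 bases and its longest transcript 4278. By the longest transcript the share of Hk1 would be larger, and its order against Hk3 can change. These within-family proportions were chosen for display after the values were seen, and they carry no test.

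Glucose phosphate isomerase, encoded by Gpi1, makes fructose 6-phosphate. Gpi1 had 1148 CPM with Wnt2, 1837 CPM with CAF.CM + Wnt2 antibody, 1767 CPM with CAF.CM and 721 CPM in control medium. The CAF.CM ratio passed 2-fold (1.29, interval 1.28 to 1.31), and the gene stood at 0.67 with Wnt2 and 0.06 for the antibody against CAF.CM. Phosphofructokinase, the committed step, is built from liver (Pfkl), muscle (Pfkm) and platelet (Pfkp) type subunits, none of which reached 2-fold. Pfkl had 314 CPM with Wnt2, 146 CPM with CAF.CM + Wnt2 antibody, 225 CPM with CAF.CM and 221 CPM in control medium. Its antibody ratio, -0.63 (interval -0.69 to -0.56), was the lowest of all 34 genes in that comparison. There were 1.64 reads of Pfkl per read of Pfkp with Wnt2, 1.00 with CAF.CM + Wnt2 antibody, 1.49 with CAF.CM and 1.28 in control medium. Pfkp itself lay between 145 and 191 CPM in all 4 libraries, with ratios of 0.14 with Wnt2, -0.19 with CAF.CM and -0.06 for the antibody. Pfkm lay between 12.3 and 23.0 CPM, with ratios of 0.23 with Wnt2, 0.83 with CAF.CM and 0.08 for the antibody.

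The bifunctional enzymes Pfkfb3 and Pfkfb4 set the level of fructose 2,6-bisphosphate, the strongest activator of phosphofructokinase. Of the 2 enzymes, Pfkfb3 has by far the higher ratio of kinase to bisphosphatase activity. Pfkfb3 had 144 CPM with Wnt2, 196 CPM with CAF.CM + Wnt2 antibody, 224 CPM with CAF.CM and 70.2 CPM in control medium. It was the 1 enzyme called higher in both comparisons with control medium, at 1.04 (interval 1.01 to 1.08) with Wnt2 and 1.67 (1.62 to 1.72) with CAF.CM, and stood at -0.19 for the antibody against CAF.CM. It ranked 355 of 13120 listed genes from the top with Wnt2 and 392 of 13329 with CAF.CM. Pfkfb4 had 57.4 CPM with Wnt2, 31.2 CPM with CAF.CM + Wnt2 antibody, 35.9 CPM with CAF.CM and 75.4 CPM in control medium. It was lower with CAF.CM (-1.07, interval -1.17 to -0.97, an interval that reaches inside 2-fold), and stood at -0.39 with Wnt2 and -0.20 for the antibody. Control medium held the most Pfkfb4 and the least Pfkfb3 of the 4 libraries. Reads of Pfkfb3 per read of Pfkfb4 were 2.52 with Wnt2, 6.28 with CAF.CM + Wnt2 antibody, 6.22 with CAF.CM and 0.931 in control medium.

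Per kilobase of merged exons, Aldoa had the highest level of the 34 genes in all 4 libraries, with 565 CPM per kb with Wnt2, 759 CPM per kb with CAF.CM + Wnt2 antibody, 739.9 CPM per kb with CAF.CM and 462 CPM per kb in control medium. Aldolase A (Aldoa), which cleaves fructose 1,6-bisphosphate, had 1644 CPM with Wnt2, 2209.8 CPM with CAF.CM + Wnt2 antibody, 2154 CPM with CAF.CM and 1344 CPM in control medium, with ratios against control medium of 0.29 with Wnt2 and 0.68 with CAF.CM. Gapdh, which oxidises glyceraldehyde 3-phosphate and often serves as a reference gene, had 2157 CPM with Wnt2, 2273 CPM with CAF.CM + Wnt2 antibody, 2239 CPM with CAF.CM and 1330.3 CPM in control medium. Its ratios were 0.70 (interval 0.69 to 0.71) with Wnt2, 0.75 (0.74 to 0.76) with CAF.CM and 0.02 (0.00 to 0.04) for the antibody against CAF.CM. Control medium was the lowest library for Gapdh, so the gene was not level across the groups on the deposited scale. Pgk1, the first enzyme of the pathway to yield ATP, had 884 CPM with Wnt2, 1321 CPM with CAF.CM + Wnt2 antibody, 1389 CPM with CAF.CM and 578 CPM in control medium. Its CAF.CM ratio passed 2-fold (1.26, interval 1.25 to 1.28), and it stood at 0.61 with Wnt2 and -0.07 for the antibody.

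The remaining steps stayed within 2-fold. Triose phosphate isomerase (Tpi1) and phosphoglycerate mutase (Pgam1) stood at 0.38 and 0.27 with Wnt2, at 0.35 and 0.32 with CAF.CM, and at 0.06 and 0.08 for the antibody against CAF.CM. Enolase (Eno1) had 1019 CPM with Wnt2, 822 CPM with CAF.CM + Wnt2 antibody, 979 CPM with CAF.CM and 713 CPM in control medium, with ratios of 0.52 with Wnt2, 0.46 with CAF.CM and -0.25 for the antibody. Pkm, the pyruvate kinase gene, had 1764 CPM with Wnt2, 1683 CPM with CAF.CM + Wnt2 antibody, 1671 CPM with CAF.CM and 1419 CPM in control medium. Its ratios were 0.31 with Wnt2 and 0.24 with CAF.CM, and 0.01 for the antibody, a sign that turned when libraries were scaled by total counts. Ldha, the lactate-forming dehydrogenase subunit, had 636 CPM with Wnt2, 886 CPM with CAF.CM + Wnt2 antibody, 847 CPM with CAF.CM and 462 CPM in control medium, with ratios of 0.46 with Wnt2, 0.88 with CAF.CM and 0.06 for the antibody. Pdk1, which switches off pyruvate dehydrogenase and so keeps pyruvate out of the mitochondrial cycle, had 128 CPM with Wnt2, 70.7 CPM with CAF.CM + Wnt2 antibody, 90.6 CPM with CAF.CM and 85.4 CPM in control medium, with ratios of 0.58 with Wnt2, 0.09 with CAF.CM and -0.36 for the antibody. Pdk1 was highest with Wnt2, unlike Ldha, which was highest in both CAF.CM libraries.

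Several of these enzymes have processed copies elsewhere in the genome, which can share reads. Of the 31-base words of the longest annotated transcript, 73.0% were found in another gene's for Eno1, 68.3% for Pgk1, 50.9% for Pkm, 42.1% for Pgam1, 34.2% each for Aldoa and Ldha and 30.7% for Gapdh, so their values are less certain. The copies that were listed summed to little beside the gene itself, at most 10.8 CPM for copies of Gapdh (in the CAF.CM + Wnt2 antibody library) and 8.49 CPM for those of Pgk1 (with CAF.CM). Adding them to their gene changed 0 of the counts of called genes.

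The HIF genes begin with the oxygen sensing machinery. Hif1a had 1708 CPM with Wnt2, 1116 CPM with CAF.CM + Wnt2 antibody, 1390.0 CPM with CAF.CM and 963 CPM in control medium. Its ratios were 0.83 (interval 0.82 to 0.84) with Wnt2, 0.53 (0.51 to 0.55) with CAF.CM and -0.32 (-0.34 to -0.29) for the antibody against CAF.CM, the last being the lowest of the 16 HIF genes in that comparison. HIF-1 alpha is set largely by protein stability, which these data do not measure. Egln3, a prolyl hydroxylase that HIF induces as feedback, had 138 CPM with Wnt2, 142 CPM with CAF.CM + Wnt2 antibody, 146 CPM with CAF.CM and 34.8 CPM in control medium. It was higher with Wnt2 (1.99, interval 1.94 to 2.03) and with CAF.CM (2.07, interval 2.01 to 2.13), and its antibody ratio was -0.04, which turned sign when ratios were centred on the median of protein-coding genes. All 3 libraries other than control medium thus held about the same Egln3 level.

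The sister genes of Egln3 stayed within 2-fold. Egln1, the main oxygen sensor in most cells, had 111 CPM with Wnt2, 108 CPM with CAF.CM + Wnt2 antibody, 102 CPM with CAF.CM and 59.6 CPM in control medium, with ratios of 0.90 with Wnt2, 0.78 with CAF.CM and 0.09 for the antibody. Egln2 had 31.6 CPM with Wnt2, 22.3 CPM with CAF.CM + Wnt2 antibody, 26.1 CPM with CAF.CM and 30.2 CPM in control medium, with ratios of 0.07 with Wnt2, -0.21 with CAF.CM and -0.23 for the antibody. Per kilobase of merged exons, the 3 hydroxylases summed to 94.1 CPM per kb with Wnt2, 91.6 CPM per kb with CAF.CM + Wnt2 antibody, 92.7 CPM per kb with CAF.CM and 40.5 CPM per kb in control medium. Egln3 made up 55.2% of that sum with Wnt2, 58.4% with CAF.CM + Wnt2 antibody, 59.3% with CAF.CM and 32.4% in control medium. Egln1 was the largest of the 3 per length in control medium, at 41.0% of the sum, and Egln3 was the largest in the other 3 libraries.

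**Figure D3:**
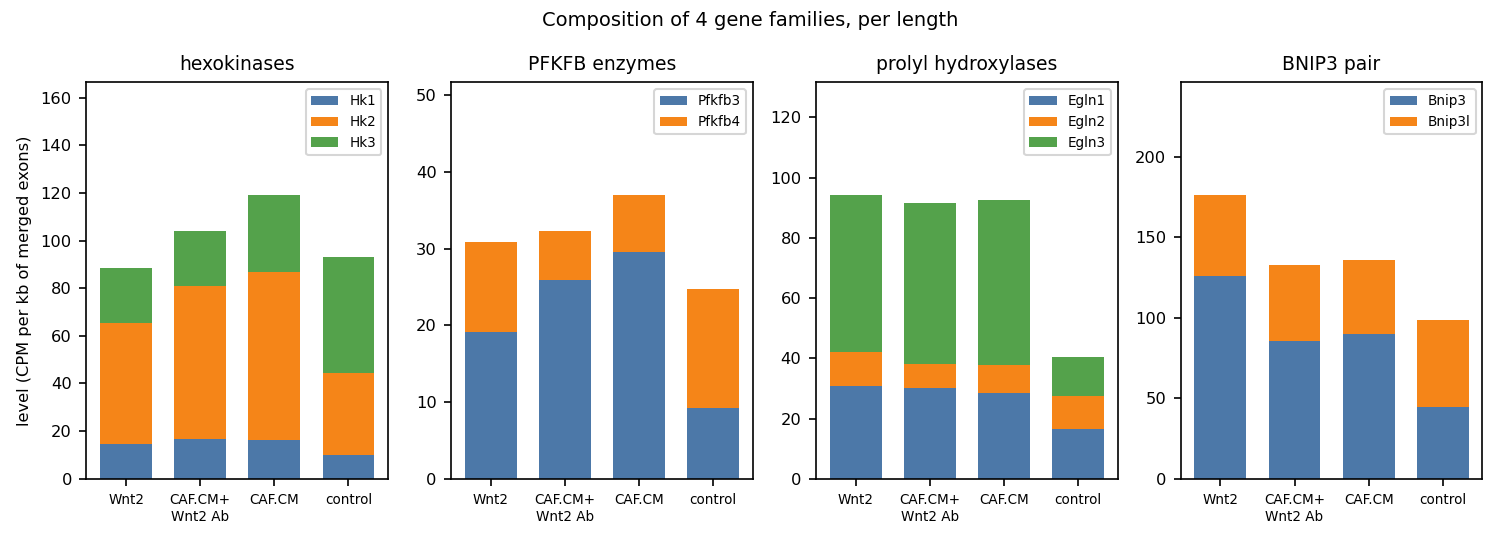
Stacked bars of the level per kilobase of merged exons (CPM per kb) of the members of 4 gene families in each library, with 1 library per bar and no error bar. The prolyl hydroxylases sum to between 91.6 and 94.1 CPM per kb in 3 libraries and to 40.5 CPM per kb in control medium, and Hk3 takes 52.5% of the hexokinase level in control medium.

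The mitophagy receptors Bnip3 and Bnip3l, which tether damaged mitochondria to the autophagy machinery, also parted. Bnip3 had 285 CPM with Wnt2, 194 CPM with CAF.CM + Wnt2 antibody, 203 CPM with CAF.CM and 101 CPM in control medium. It was higher with Wnt2 (1.5, interval 1.47 to 1.52) and with CAF.CM (1.01, interval 0.96 to 1.06, which reaches inside 2-fold), with an antibody ratio of -0.07. Bnip3l had 193 CPM with Wnt2, 182 CPM with CAF.CM + Wnt2 antibody, 178 CPM with CAF.CM and 209 CPM in control medium, with ratios of -0.12 with Wnt2, -0.23 with CAF.CM and 0.03 for the antibody. There were 1.48 reads of Bnip3 per read of Bnip3l with Wnt2, 1.06 with CAF.CM + Wnt2 antibody, 1.14 with CAF.CM and 0.482 in control medium. Bnip3 shared 26.6% and Bnip3l 27.4% of their 31-base words with other genes, and 0 of their annotated near copies were listed.

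Hilpda, a lipid droplet protein that inhibits the triglyceride lipase ATGL, had the highest Wnt2 ratio of the 33 genes listed there. It had 178 CPM with Wnt2, 550.0 CPM with CAF.CM + Wnt2 antibody, 274 CPM with CAF.CM and 39.2 CPM in control medium. The log2 ratio was 2.18 (interval 2.14 to 2.23) with Wnt2, 2.80 (2.75 to 2.85) with CAF.CM and 1.01 (0.97 to 1.05) for the antibody against CAF.CM. Hilpda was thus lowest in control medium and highest with CAF.CM + Wnt2 antibody, and it ranked 62 of 13120 genes from the top with Wnt2, 131 of 13329 with CAF.CM and 130 of 13072 for the antibody. Its level per kilobase of merged exons was 161 CPM per kb with Wnt2, 499 CPM per kb with CAF.CM + Wnt2 antibody, 248 CPM per kb with CAF.CM and 35.5 CPM per kb in control medium. The antibody interval reaches inside 2-fold, and scaling by total counts put the gene just under the threshold.

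Oxidative folding and collagen modification came next. Ero1l, an oxidase that renews protein disulfide isomerase in the endoplasmic reticulum, had 861 CPM with Wnt2, 1833 CPM with CAF.CM + Wnt2 antibody, 1474 CPM with CAF.CM and 338 CPM in control medium. It was higher with Wnt2 (1.35, interval 1.33 to 1.36) and with CAF.CM (2.12, interval 2.10 to 2.14), and stood at 0.31 for the antibody. P4ha1 and P4ha2 are alternative catalytic subunits of collagen prolyl 4-hydroxylase. P4ha2, the scarcer of the pair, had 26.7 CPM with Wnt2, 27.9 CPM with CAF.CM + Wnt2 antibody, 20.3 CPM with CAF.CM and 6.09 CPM in control medium, and was higher with Wnt2 (2.13, interval 2.02 to 2.24) and with CAF.CM (1.73, interval 1.58 to 1.89). P4ha1 had 406 CPM with Wnt2, 847 CPM with CAF.CM + Wnt2 antibody, 564 CPM with CAF.CM and 294 CPM in control medium, with ratios of 0.46 with Wnt2, 0.94 with CAF.CM and 0.59 for the antibody. Both subunits were highest with CAF.CM + Wnt2 antibody, where P4ha2 stood at 0.46 against CAF.CM.

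Secreted factors are represented by Vegfa, the main angiogenic growth factor, and Adm, which encodes the vasodilator adrenomedullin. Vegfa had 2192 CPM with Wnt2, 2957 CPM with CAF.CM + Wnt2 antibody, 2655 CPM with CAF.CM and 1134 CPM in control medium. Control medium was the lowest library and both CAF.CM libraries the highest. Vegfa was higher with CAF.CM (1.23, interval 1.21 to 1.24), stood just under 2-fold with Wnt2 (0.95, interval 0.94 to 0.96), and was at 0.16 for the antibody. Adm was close to the detection limit in all libraries that list it, with 26 reads (1.12 CPM) with CAF.CM + Wnt2 antibody, 27 reads (1.04 CPM) with CAF.CM and 7 reads (0.049 CPM) in control medium. The CAF.CM ratio of 3.85 (interval 3.16 to 5.83) depends on the prior count, and the antibody ratio of 0.10 has an interval from -0.72 to 0.94.

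Of the other targets, Ankrd37, an ankyrin repeat protein, had 34.5 CPM with Wnt2, 93.0 CPM with CAF.CM + Wnt2 antibody, 91.1 CPM with CAF.CM and 25.3 CPM in control medium. Ankrd37 was higher with CAF.CM (1.85, interval 1.77 to 1.92) and stood at 0.45 with Wnt2 and 0.03 for the antibody. Ndrg1, a stress response gene, had 31.6 CPM with Wnt2, 59.9 CPM with CAF.CM + Wnt2 antibody, 40.2 CPM with CAF.CM and 23.2 CPM in control medium, with ratios of 0.45 with Wnt2, 0.79 with CAF.CM and 0.57 for the antibody. Both genes were lowest in control medium, and Ndrg1 was highest with the antibody. The histone demethylase Kdm3a and the MYC antagonist Mxi1 stayed within 2-fold, at 0.40 and 0.65 with Wnt2, 0.11 and 0.70 with CAF.CM, and 0.16 and 0.19 for the antibody.

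**Figure D4:**
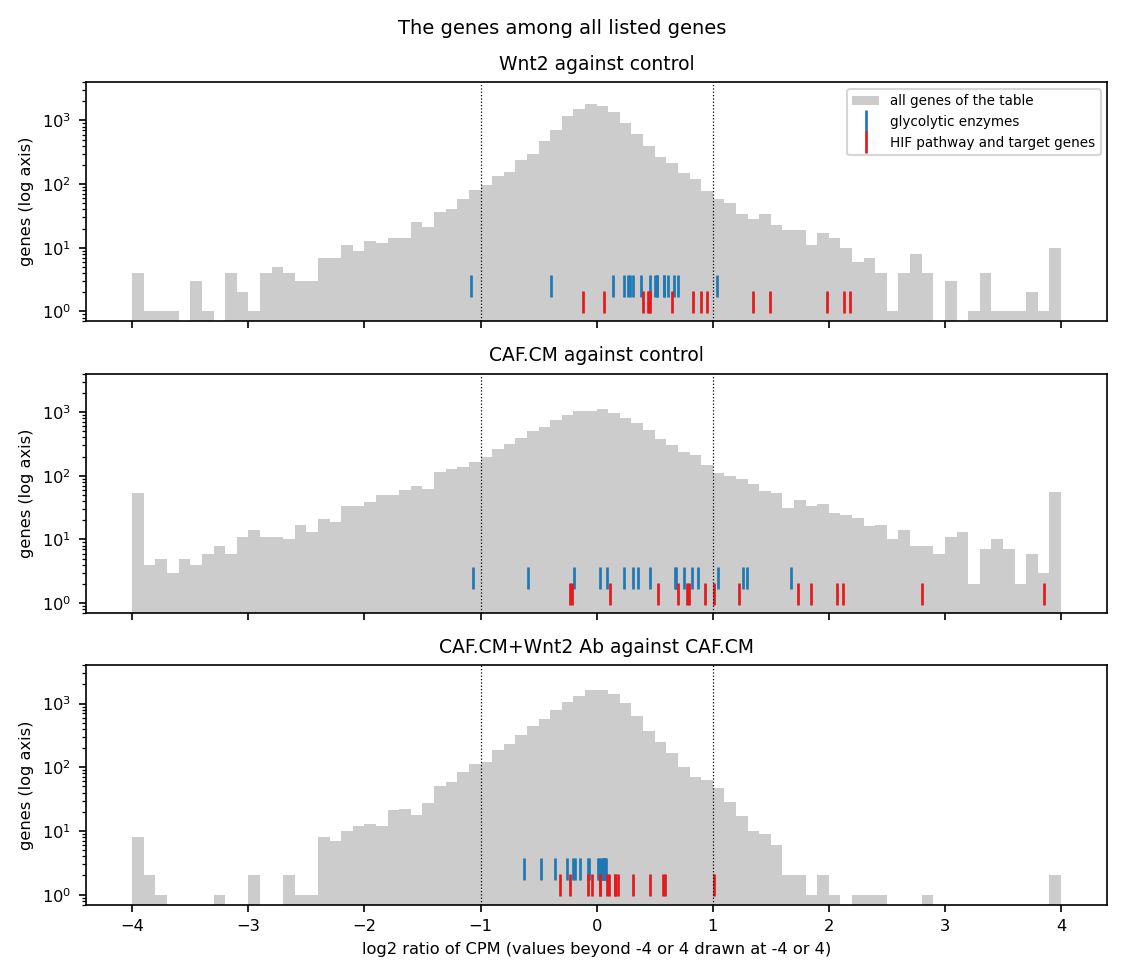
Histograms of the log2 ratio of CPM over all genes of each table (grey, log count axis, bins of 0.1, values past -4 or 4 drawn at the edge), with ticks for the enzymes (blue) and the HIF genes (red) placed at fixed heights; dotted lines mark 2-fold. Most ticks lie right of the grey peak with Wnt2 and CAF.CM, with medians of 0.48 and 0.57 for enzymes and 0.83 and 0.97 for HIF genes, while in the antibody panel all but Hilpda lie between the dotted lines.

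The 6 genes that were at least 2-fold higher with Wnt2 and with CAF.CM alike (Egln3, Bnip3, Pfkfb3, Ero1l, P4ha2 and Hilpda) were examined at their promoters, because hypoxia response elements are built around a short core. How many of all listed genes were higher in both was not counted, and both comparisons use the same control library. The number 6 thus does not set these genes apart. The 250 bases before each start in the RefSeq promoter table (GRCm38.p6) were searched on both strands for ACGTG and GCGTG. Of each printed window, only the longest run without bases that GENCODE M21 annotates as exon is shown, 5′ to 3′ on the gene's strand. A run may thus end before the start site, and other bases outside exons may be left out, as for Ero1l. The Pfkfb3, Ero1l and P4ha2 runs lie inside the annotated span of their gene, not upstream of it. Capitals mark matches, CACGT and CACGC being the same cores on the other strand, and CACGTG, which holds ACGTG on each strand, counting as 2 matches.
Egln3 (chr12:54203875-54204124, minus strand): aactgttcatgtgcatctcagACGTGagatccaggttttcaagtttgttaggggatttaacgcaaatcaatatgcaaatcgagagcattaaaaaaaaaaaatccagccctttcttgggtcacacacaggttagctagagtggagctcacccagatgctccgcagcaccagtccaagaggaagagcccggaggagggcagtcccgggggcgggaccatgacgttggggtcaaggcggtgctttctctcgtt
Bnip3 (chr7:138909520-138909756, minus strand): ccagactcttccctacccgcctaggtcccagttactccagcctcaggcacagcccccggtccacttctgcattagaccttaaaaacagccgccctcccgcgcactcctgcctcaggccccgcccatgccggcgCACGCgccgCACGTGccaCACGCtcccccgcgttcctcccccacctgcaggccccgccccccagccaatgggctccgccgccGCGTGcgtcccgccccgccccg
Pfkfb3 (chr2:11502102-11502340, minus strand): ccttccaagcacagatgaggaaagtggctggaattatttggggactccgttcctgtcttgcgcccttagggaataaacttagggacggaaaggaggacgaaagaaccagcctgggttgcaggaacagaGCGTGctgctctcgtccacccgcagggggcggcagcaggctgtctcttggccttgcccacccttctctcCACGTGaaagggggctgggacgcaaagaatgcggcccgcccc
Ero1l (chr14:45318573-45318702, minus strand): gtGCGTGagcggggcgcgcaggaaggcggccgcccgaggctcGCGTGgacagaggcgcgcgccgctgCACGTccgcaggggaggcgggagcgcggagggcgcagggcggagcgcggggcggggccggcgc
P4ha2 (chr11:54100674-54100923, plus strand): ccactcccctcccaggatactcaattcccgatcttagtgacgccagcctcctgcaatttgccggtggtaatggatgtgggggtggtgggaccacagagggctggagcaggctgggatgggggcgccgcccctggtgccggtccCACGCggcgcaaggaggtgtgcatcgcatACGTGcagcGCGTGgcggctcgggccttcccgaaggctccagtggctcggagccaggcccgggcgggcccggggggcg
Hilpda (chr6:29272238-29272487, plus strand): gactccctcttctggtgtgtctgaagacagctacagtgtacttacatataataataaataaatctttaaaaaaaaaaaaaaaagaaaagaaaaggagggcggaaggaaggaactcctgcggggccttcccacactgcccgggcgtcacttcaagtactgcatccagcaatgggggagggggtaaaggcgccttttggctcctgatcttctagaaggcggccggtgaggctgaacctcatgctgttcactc

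Within these runs, Bnip3 held 5 matches, Pfkfb3, Ero1l and P4ha2 held 3 each, Egln3 held 1 and Hilpda held 0. The Bnip3 and Pfkfb3 runs hold the palindrome CACGTG, which 6.02% of all windows hold. Hilpda and Pfkfb3 have a second annotated start each, whose windows are not printed. The other Hilpda window overlaps an annotated exon in 121 bases and held 3 matches. The other Pfkfb3 window, which spans the annotated 5′ end of the gene, overlaps an annotated exon in 148 bases and held 1. The longest run outside annotated exons held 0 matches in each of these windows, and shorter runs outside exons were not counted. Over all their windows, all 6 genes held ACGTG, where 25.2% of the 9758 genes listed in the tables with a promoter entry did. At least 1 of both cores was held by 30 of the 32 members with an entry (Ero1l was matched as Ero1a by its gene identifier, and Bnip3l and Ndrg1 were not matched), by 16 of 18 enzymes and by 14 of 14 HIF genes, against 61.0% of the listed genes. Counted by window instead of by gene, 39 of 51 windows of the members (76.5%) and 55.0% of those of the listed genes held a core. Many members are known as HIF targets, so the shares are not independent of how the genes were chosen. A match describes letters in a window and does not show that a factor binds there.

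The 6 genes lie at these positions in GENCODE M21 on GRCm38. Egln3 spans chr12:54178981-54203860 on the minus strand, Bnip3 chr7:138890836-138909519 on the minus strand and Pfkfb3 chr2:11471433-11554077 on the minus strand. Ero1l spans chr14:45283087-45318771 on the minus strand, P4ha2 chr11:54100095-54131665 on the plus strand and Hilpda chr6:29272488-29275446 on the plus strand. All are annotated as protein-coding.

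Lists of neighbouring genes were read against the same shares of all listed genes, 2.87% higher and 2.93% lower with Wnt2, 6.68% higher and 8.69% lower with CAF.CM, and 1.02% higher and 3.65% lower for the antibody. Other HIF targets, 39 genes that are not among the 34, had 7 of 35 listed genes higher and 0 lower with Wnt2 (median 0.51) and 10 of 36 higher and 3 lower with CAF.CM (median 0.45), with 0 of 35 called for the antibody (median 0.13). The counts of higher genes lay above the shares of all genes with Wnt2 and with CAF.CM, and the 3 lower ones with CAF.CM lay near that share. Ddit4, an inhibitor of mTORC1, led with Wnt2 at 3.88 (92.7 CPM, against 6.27 CPM in control medium), and the collagen lysyl hydroxylase gene Plod2 (1.99) and Stc2 (1.85) were also higher. With CAF.CM, the higher genes included the inducible nitric oxide synthase gene Nos2 (5.49), Ddit4 (4.01) and the lysyl oxidase gene Lox (3.08). The lower ones with CAF.CM were Angptl4 (-2.45, interval -3.60 to -1.63, from 10 reads with CAF.CM and 313 in control medium), Slc7a5 (-1.62, interval -2.12 to -1.18) and Cxcr4 (-1.38), of which Angptl4 was higher with Wnt2 (1.77).

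Genes of the HIF machinery outside the 34 were called about as rarely as all genes. Of 12 listed, 0 were called with Wnt2 (median 0.09, highest 0.39), 1 was lower with CAF.CM (Epas1, which encodes HIF-2 alpha, at -1.83, interval -2.38 to -1.36, with 1.34 CPM with CAF.CM, against 4.83 CPM in control medium), and 0 were called for the antibody. Genes that move glucose, lactate and pyruvate had 20 of 22 listed, with medians of -0.17 with Wnt2, 0.06 with CAF.CM and -0.03 for the antibody. Ratios above 0 were found for 5 of the 20 with Wnt2, 11 with CAF.CM and 10 for the antibody. With Wnt2, 0 were higher and the sugar transporter gene Slc2a6 was lower (-1.16). With CAF.CM, Bsg, the chaperone of lactate transporters, was higher (1.41) and the transporter gene Slc16a7 was lower (-1.75), with 0 called for the antibody. The HIF-responsive transporters Slc2a1 (GLUT1) and Slc16a3 (MCT4) were among the few genes of this list above 0 with Wnt2, and they were picked with their values in view. They stayed within 2-fold, at 0.69 and 0.98 with Wnt2, 0.62 and 0.95 with CAF.CM, and 0.48 and -0.06 for the antibody.

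Other glycolytic isoforms and side branches of the pathway had medians of 0.01 with Wnt2, 0.07 with CAF.CM and -0.15 for the antibody, near those of all genes. With Wnt2, 1 of 23 listed genes was higher (glycogen synthase, Gys1, at 1.14) and 1 lower (Ldhb, the heart type lactate dehydrogenase subunit, at -1.11). With CAF.CM, 3 of 24 were higher, among them Gys1 (1.46) and the mitochondrial glycerol phosphate dehydrogenase gene Gpd2 (1.12), and Ldhb was lower (-1.24). In the antibody comparison 0 of 24 were called. The counts with Wnt2 lie near the shares of all genes given above, and a list of this size gives too few calls to set the others apart from them. Ldhb was thus lower in both comparisons with control medium, where Ldha stood at 0.46 and 0.88.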

How the data were processed

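Stranded libraries were made from ribosome-depleted total RNA, per the labels' protocols. The submitters' processing notes name the tools edgeR, RSEM 1.2.29 and STAR 2.4.2a and the builds mm10 and GRCm38.p5, without settings. The authors deposited 1 table per comparison with normalized CPM per gene and library, log2 fold changes, and p-values with adjusted p-values, per the file headers. Where 2 tables hold the same library its values were identical (control medium, 12954 of 12954 genes, and CAF.CM, 12848 of 12848 genes). Strand use in counting and the dispersion behind the p-values are not stated.

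The plan had allowed for counts, but the files hold CPM. In each library 100% of values were whole multiples of 1 step, within 0.1 step, and reads were recovered from these steps (1 read was worth 0.00651 CPM with Wnt2, 0.0431 with CAF.CM + Wnt2 antibody, 0.0384 with CAF.CM and 0.00707 in control medium). Log2 ratios were computed from them in Python 3.11.15 (numpy 2.4.6, pandas 2.3.3, scipy 1.17.1, matplotlib 3.10.9) with a prior count of 2 scaled to library size, on the deposited scaling, for genes with at least 10 reads over both libraries. Intervals are exact (Clopper-Pearson) conditional binomial at 95%. The step and ratio code was tested on simulated data. With 1 library per group no test was made.

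The 34 genes and all lists were chosen with earlier results of these data known. Named one by one are genes beyond 2-fold in any comparison, the 3 highest and 3 lowest of each set per comparison and the 5 with the most CPM in control medium, and of the other lists up to 4 beyond 2-fold per comparison; Hk1, Tpi1, Pgam1, Eno1, Ldha, Egln1, Mxi1, Angptl4 with Wnt2, Slc2a1, Slc16a3 and Malat1 were named after their values were seen where the rule did not take them. Not every gene of the other lists taken by this rule is reported here. Alternatives were other scalings, read minimums, prior counts, fold thresholds and the deposited log2 fold changes. Gene positions and exon lengths are from GENCODE M21, which held 99.8% of listed genes.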

Additional observations from a re-analysis of the deposited data

How the results depend on the processing

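With 1 library per group the limit is the absence of replicates: counting intervals are narrow for most of the 34 genes, of which Adm alone rests on under 30 reads in a library, and wider for scarce genes of the other lists such as Angptl4. Of the counts of called genes under all alternatives, 61 were within 1.5 times the reported count and 11 were not. A 1.5-fold threshold gave 5 enzymes and 9 HIF genes for Wnt2, 11 enzymes for CAF.CM, and 1 enzyme and 2 HIF genes for the antibody. A 3-fold threshold gave 0 enzymes and 3 HIF genes for Wnt2, 1 enzyme for CAF.CM and 0 HIF genes for the antibody. The shares of all listed genes at 1.5-fold and 3-fold were not counted. These counts therefore show only how the calls move with the threshold. For the antibody, scaling by total counts gave 0 HIF genes, and an interval wholly beyond 2-fold was met by 0. The CAF.CM count of HIF genes lay between 6 and 12. Of single ratios 0 of those called reversed. The scalings moved the median of all genes by at most 0.07 (log2). Adding listed sequence copies was chosen after seeing the data. No paired analysis was possible because each group has 1 library and no replicate number.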
